A study of Mus musculus with 8 samples.

Results

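Olfactory receptor genes (symbols beginning with Olfr) on mouse chromosomes 9 and 11 were scored for the 3 methylation states of lysine 9 of histone H3 in mouse embryonic fibroblasts (MEFs), the cells cultured from mouse embryos. They were taken from the GENCODE M21 annotation of the GRCm38 (mm10) assembly by symbol and chromosome, a rule that uses no measured value, although the family and chromosomes were picked with earlier results of these data known. They numbered 277, with 173 on chromosome 9 and 104 on chromosome 11, of 1407 Olfr genes and 55413 genes in all. Of the 277 genes, 214 were annotated as protein-coding and 63 as pseudogenes or of another class.

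ChIP-seq, the sequencing of DNA pulled down with an antibody against a histone mark, was performed for H3K9me1, H3K9me2 and H3K9me3, with input chromatin as the background sample. The 8 samples formed 4 groups of 2 replicates each. All samples came from MEFs labelled wild type and grown in standard medium. In the study these cells are the E1c line, which carries a tamoxifen-inducible conditional deletion of Eset1 (Setdb1, an H3K9 methyltransferase gene) and serves as the wild-type control while Eset1 is intact, so the groups share that allele and differ in the antibody. The values analysed here were 1 list of enriched regions per mark, with a chromosome, a start and an end for each region and no score, and no list of the input was analysed here. The lists hold no values per replicate and no read counts, so no spread between replicates can be given and read depth is unknown. They hold no expression either, so the identity of the cells could not be checked against fibroblast markers.

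Olfactory receptors are G protein-coupled receptors that detect odorants. They form the largest gene family of the mouse and lie in clusters on most chromosomes. Each olfactory sensory neuron transcribes a single receptor gene, from 1 of its alleles, while the other receptor genes are kept silent in that neuron and the family is silent in most other tissues. H3K9me2 and H3K9me3 are marks of repressed chromatin and are known at receptor gene clusters in sensory neurons, while H3K9me1 is found both in active and in repressed chromatin.

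A start site was called met where a region reached within 1 kb of any annotated transcript start of the gene by at least 1 bp. By this rule a gene with more annotated starts had more chances to be met, as had a longer gene where bodies were counted. Comparisons between Olfr genes and other genes were not matched for either. A cluster was a run of at least 3 genes with no gap over 500 kb, and its flanks were the 500 kb on either side. This gave 2 clusters on chromosome 9 and 7 on chromosome 11, with 2 genes outside them. Shares carry 95% Wilson intervals, which cover counting error only. Neighbouring genes often lie under the same region and are not independent, so no test was made over genes.

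Promoters are shown first for 5 genes, chosen as neighbours that differed most in the number of marks within the larger clusters. The sequences are those of RefSeq (GRCm38.p6), from 250 bases before to 50 after a RefSeq start, written 5′ to 3′ on the strand of the gene. Capitals mark a match, on either strand, to TCCCNNGG, the core of the site bound by Ebf factors, or to TAATTA, the core recognised by many homeodomain factors. Both kinds of factor are known at olfactory receptor promoters in sensory neurons. Olfr328 carried all 3 marks over this stretch (chr11:58552188-58552487, minus strand).
Olfr328: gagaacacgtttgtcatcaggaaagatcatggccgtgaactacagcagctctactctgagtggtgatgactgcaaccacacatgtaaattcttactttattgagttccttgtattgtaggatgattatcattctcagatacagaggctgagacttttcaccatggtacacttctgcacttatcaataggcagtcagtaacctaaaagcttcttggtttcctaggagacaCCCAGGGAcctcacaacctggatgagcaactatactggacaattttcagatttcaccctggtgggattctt
Olfr20 carried none at either annotated start (chr11:73350609-73350908, plus strand).
Olfr20: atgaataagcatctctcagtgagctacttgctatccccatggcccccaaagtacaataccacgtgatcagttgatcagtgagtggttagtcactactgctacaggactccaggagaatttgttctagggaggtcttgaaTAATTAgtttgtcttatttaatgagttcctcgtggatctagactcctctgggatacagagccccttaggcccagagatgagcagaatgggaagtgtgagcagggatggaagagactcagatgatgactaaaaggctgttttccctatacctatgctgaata
Olfr1381 carried none (chr11:49551499-49551798, plus strand), and its neighbour Olfr1380 carried H3K9me1 over the same stretch of its own sequence (chr11:49563673-49563972, plus strand).
Olfr1381: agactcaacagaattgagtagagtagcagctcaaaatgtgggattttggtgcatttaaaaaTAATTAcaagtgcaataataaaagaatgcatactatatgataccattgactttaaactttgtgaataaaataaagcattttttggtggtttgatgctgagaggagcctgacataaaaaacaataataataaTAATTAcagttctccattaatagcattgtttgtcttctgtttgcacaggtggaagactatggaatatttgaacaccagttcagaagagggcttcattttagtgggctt
Olfr1380: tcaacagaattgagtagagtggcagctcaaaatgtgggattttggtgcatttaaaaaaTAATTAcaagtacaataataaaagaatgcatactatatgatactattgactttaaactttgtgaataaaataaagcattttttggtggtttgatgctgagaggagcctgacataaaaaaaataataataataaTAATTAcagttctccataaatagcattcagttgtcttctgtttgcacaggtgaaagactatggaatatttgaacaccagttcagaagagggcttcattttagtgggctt
On chromosome 9, Olfr872 carried H3K9me2 near its start but not over the RefSeq promoter (chr9:20236912-20237211, plus strand).
Olfr872: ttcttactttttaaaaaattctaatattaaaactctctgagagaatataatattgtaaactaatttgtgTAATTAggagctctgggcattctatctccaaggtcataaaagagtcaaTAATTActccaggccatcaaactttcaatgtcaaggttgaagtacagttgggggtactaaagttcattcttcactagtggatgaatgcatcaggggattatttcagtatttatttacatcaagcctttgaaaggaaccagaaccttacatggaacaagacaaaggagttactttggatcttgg

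The promoters of Olfr1381 and Olfr1380 were identical at 288 of 304 alignment columns (94.7%), so near-identical promoters lay in differently called chromatin. Those of Olfr871 and Olfr872 were identical at 52.9% and those of Olfr937 and Olfr938 at 56.6%. A RefSeq promoter was found for 179 of the 277 genes, 109 on chromosome 9 and 70 on chromosome 11, with 181 promoters in all. In these stretches, shorter than the start windows used below, H3K9me1 met 17 of the 71 chromosome 11 promoters (23.9%). H3K9me2 met 34 of them (47.9%) and H3K9me3 met 14 (19.7%). Of the 110 chromosome 9 promoters, H3K9me3 met 3 (2.73%) and the other marks met none. No share over all promoters is given beside these. TAATTA occurred in 42 of these 181 promoters (23.2%), against 5.29% of the 32851 promoters of all genes. TCCCNNGG occurred in 14 (7.73%), against 22.6% of all promoters. The base composition of the windows differed as well, with a GC content of 36.4% in the olfactory receptor promoters and 53.8% in all promoters.

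Among the chromosome 11 promoters, TAATTA occurred in 4 of 42 (9.52%) of genes with H3K9me2 at a start site and in 10 of 29 (34.5%) of genes without it. TCCCNNGG occurred in 5 of the 42 (11.9%) and in 3 of the 29 (10.3%). The GC content of the 2 sets was 40.3% and 38.5%. A match to these letters describes the sequence and not a bound site, and a promoter with no match lacks only these letters in this window.

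The receptor genes of the 2 chromosomes were marked to very different extents. On chromosome 9, 8 of 173 genes had a mark at a start site (4.62%, interval 2.36 to 8.86%), while on chromosome 11 it was 81 of 104 (77.9%, 69.0 to 84.8%). Over all annotated genes, 28.8% had a mark at a start site, with 50.8% on chromosome 9 and 39.6% on chromosome 11. The receptor genes thus lay below the other genes of chromosome 9 and above those of chromosome 11, although chromosome 9 was the more covered of the pair. Regions of H3K9me1, H3K9me2 and H3K9me3 covered 19.5%, 11.4% and 13.9% of chromosome 9 and 16.9%, 6.24% and 8.88% of chromosome 11.

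H3K9me1 met a start site of 0 of the 173 genes on chromosome 9, with an upper Wilson limit of 2.17%. The background of H3K9me1 was 36.7% of all genes of that chromosome and 21.4% of all genes. H3K9me2 met 2 genes (1.16%, interval 0.318 to 4.12%), against 15.8% of the chromosome's genes and 11.5% of all genes. H3K9me3 met 6 genes (3.47%, 1.60 to 7.36%), against 13.7% and 12%. The count of genes with any mark ranged from 3 with regions of at least 5 kb to 29 with a 5 kb window. No gene carried more than 1 mark. Of the 1078 other protein-coding genes of the chromosome, 42 carried all 3 marks. A further 78 carried H3K9me1 with H3K9me2 alone, 33 H3K9me2 with H3K9me3 alone and 12 H3K9me1 with H3K9me3 alone. All 3 marks met 2.84% of all the chromosome's genes and 5.3% of all genes.

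On chromosome 11, H3K9me2 was the most frequent mark and met 64 of the 104 genes (61.5%, interval 51.9 to 70.3%), against 8.4% of all genes of the chromosome. H3K9me1 met 47 genes (45.2%, 36.0 to 54.8%), against 31.9%. H3K9me3 met 32 genes (30.8%, 22.7 to 40.2%), against 7.51%. All 3 marks met 14 genes (13.5%, 8.19 to 21.3%), against 1.36%. This last count ranged from 2 with regions of at least 5 kb to 27 with a 5 kb window. The order from most to least frequent was H3K9me2, H3K9me1 and H3K9me3 in the receptor genes. With regions of at least 5 kb only, H3K9me2 met 48 genes, H3K9me3 met 19 and H3K9me1 met 15, so the last pair changed places. In the 1557 other protein-coding genes of the chromosome H3K9me1 came first, with 36.6% of start sites met, against 5.46% for H3K9me2 and 5.01% for H3K9me3.

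**Figure D1:**
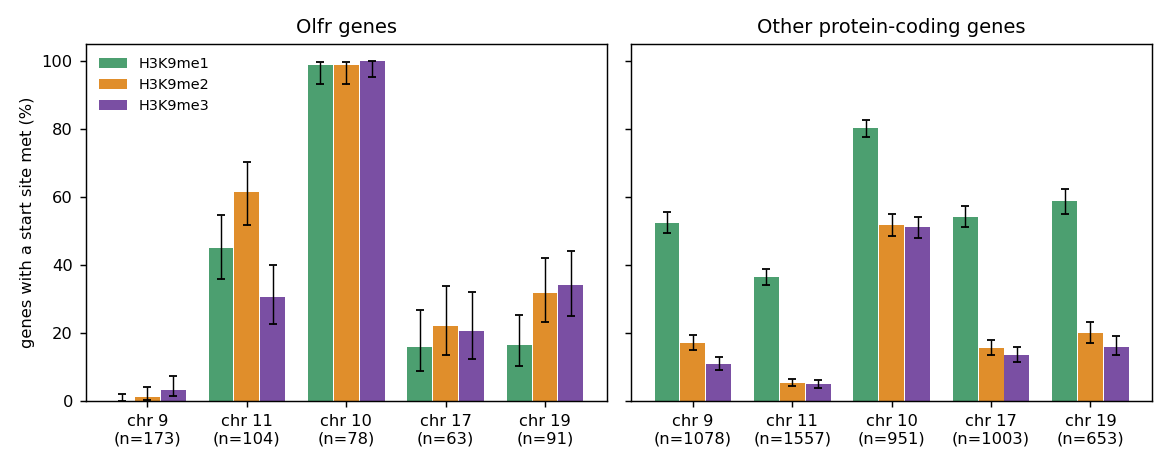
Share of genes (%) with a start site within 1 kb of a region of H3K9me1, H3K9me2 or H3K9me3, for Olfr genes (left) and other protein-coding genes (right) of 5 chromosomes, with 95% Wilson intervals as error bars and the number of genes under each group. The Olfr genes of chromosome 9 lie at 0 to 3.47%, those of chromosome 11 at 30.8 to 61.5% and those of chromosome 10 at 98.7 to 100%.

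The receptor genes of chromosomes 10, 17 and 19 gave a further comparison. On chromosome 10, which was covered to 56.5%, 59% and 58.8% by the 3 marks in turn, 77 of 78 Olfr genes carried all 3 marks. Of its 951 other protein-coding genes, 398 (41.9%) carried all 3. On chromosome 17 H3K9me1, H3K9me2 and H3K9me3 met 15.9%, 22.2% and 20.6% of 63 Olfr genes. They met 54.3%, 15.7% and 13.7% of its 1003 other protein-coding genes. On chromosome 19 they met 16.5%, 31.9% and 34.1% of 91 Olfr genes, and 58.8%, 20.1% and 16.1% of 653 other protein-coding genes. On chromosomes 17 and 19 the Olfr genes thus lay below the other protein-coding genes for H3K9me1 and above them for H3K9me2 and H3K9me3. Chromosomes 17 and 19 were covered more than chromosome 11 by each mark, at 16.9 to 26.5% and 22.3 to 31%. The Olfr genes of chromosome 11 were met by H3K9me1 (45.2%) and H3K9me2 (61.5%) in larger shares than those of chromosomes 17 and 19. For H3K9me3 the share on chromosome 11 (30.8%) lay between the shares of chromosomes 17 and 19. These differences between chromosomes were not tested. The 898 Olfr genes of the remaining chromosomes had a mark at 6.68% of genes (5.23 to 8.51%), beside 28.8% of all annotated genes. The share over all genes of those remaining chromosomes was not computed. The value therefore cannot be called low or high for them, nor likened to that of chromosome 9.

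The marks shared genes on chromosome 11. Of the 64 genes with H3K9me2, 35 also carried H3K9me1 (54.7%) and 25 also carried H3K9me3 (39.1%). Of the 40 genes without H3K9me2, 12 carried H3K9me1 (30%) and 7 carried H3K9me3 (17.5%). H3K9me2 met 85 of the 1557 other protein-coding genes of the chromosome. Of these 85, 39 added H3K9me1 only, 19 added H3K9me3 only, 16 carried all 3 marks and 11 carried H3K9me2 alone. Such sharing was thus not particular to the receptor genes. Among the receptor genes, H3K9me1 with H3K9me2 alone was the most frequent marked state, with 21 genes, followed by H3K9me2 alone with 18. H3K9me2 with H3K9me3 alone met 11 genes, H3K9me1 alone 10, H3K9me3 alone 5, and H3K9me1 with H3K9me3 alone 2, namely Olfr1380 and Olfr322. No mark met 23 genes (22.1%).

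Protein-coding genes and the remaining annotations of chromosome 11 were met in shares close to each other, apart from H3K9me1. H3K9me2 met 51 of 82 protein-coding genes (62.2%, interval 51.4 to 71.9%) and 13 of the 22 others (59.1%, 38.7 to 76.7%). H3K9me1 met 41 (50%, 39.4 to 60.6%) and 6 (27.3%, 13.2 to 48.2%), and H3K9me3 met 24 (29.3%, 20.5 to 39.9%) and 8 (36.4%, 19.7 to 57.0%), with intervals that overlapped for each mark. On chromosome 9 a mark met 7 of 132 protein-coding genes and 1 of the 41 others.

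The 8 genes marked on chromosome 9 were few enough to be given in turn. In the cluster from Olfr24 to Olfr18, H3K9me2 met Olfr872 and Olfr873, near the distal end, and covered 19.1% and 33.9% of their start windows. In the cluster from Olfr160 to Olfr986, H3K9me3 met Olfr882-ps1, Olfr938, Olfr958, Olfr960, Olfr974 and Olfr976. It covered the whole body and the whole start window of Olfr974 (chromosome 9, 39937501 to 39945170), which lay in the widest region that met a receptor gene of this chromosome, 18.75 kb long. The body of the pseudogene Olfr882-ps1 was covered whole as well, and that of Olfr958 to 54%. In Olfr938 the region reached 5.7% of the start window and in Olfr960 it reached 16.8% and none of the body, so both were met at the edge. Olfr77 had 25.5% of its body under H3K9me3 and no mark at a start site.

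The longest stretches without a mark were long. In the cluster from Olfr24 to Olfr18, 45 neighbouring genes from Olfr24 to Olfr871 had no mark at a start site over 1462 kb. In the other cluster, 58 neighbouring genes from Olfr883 to Olfr937 had none over 1039 kb. On chromosome 9 the median gene lay 261 kb from the nearest H3K9me1 region, 161 kb from H3K9me2 and 19.7 kb from H3K9me3. The medians over all genes of the chromosome were 3.28, 28.1 and 35.1 kb, so for H3K9me3 alone of the marks the receptor genes lay nearer than the median gene. Olfr369-ps1, the gene of this chromosome outside the clusters, carried no mark.

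H3K9me3 was present in the chromosome 9 clusters, mostly between the genes. The clusters held 65 H3K9me3 regions, of which 6 met the body of a receptor gene and 59 lay between them. These regions covered 2.14% of the bases inside receptor gene bodies and 10.6% of the other bases of the clusters. In the cluster from Olfr24 to Olfr18 the values were 1.17% and 14.0%, and in that from Olfr160 to Olfr986 they were 2.55% and 8.12%. Across all 173 genes, H3K9me3 lay at 13.3% of positions 10 kb upstream of the gene's 5′ end, at 1.73% of the 5′ ends and at 9.25% of positions 10 kb downstream. The soft-masked (repeat) share was 48.7% in the clusters and 18.7% at the median start window of the unmarked genes. Its part in the position of H3K9me3 was not tested.

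**Figure D2:**
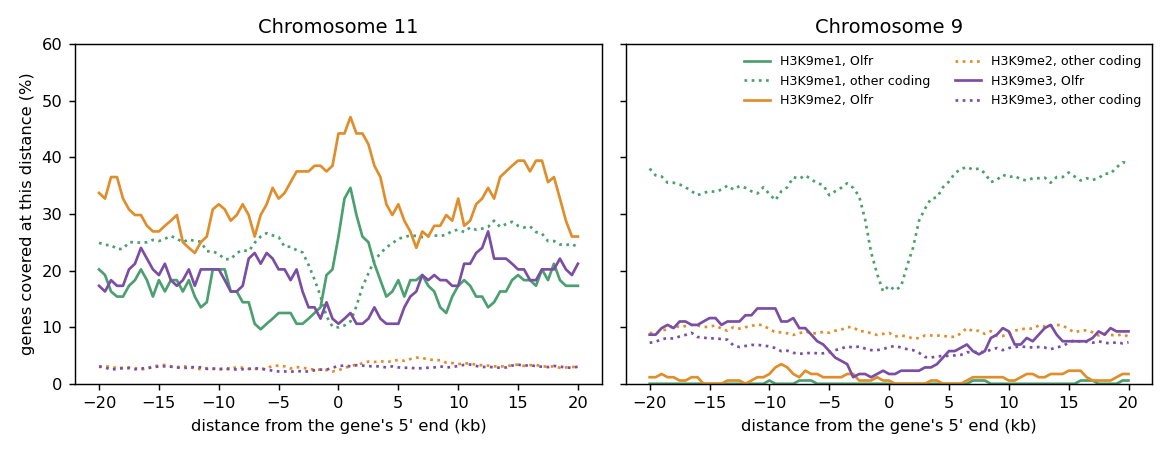
Share of genes (%) covered by each mark at distances from 20 kb upstream to 20 kb downstream of the gene's 5′ end (kb), for Olfr genes (solid lines) and other protein-coding genes (dotted lines) of chromosome 11 (left) and chromosome 9 (right). On chromosome 11 H3K9me1 and H3K9me2 over Olfr genes are highest 1 kb downstream of the 5′ end, at 34.6% and 47.1%, where H3K9me1 over other genes is near its lowest, and on chromosome 9 H3K9me3 over Olfr genes is lowest near the 5′ end.

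On chromosome 11 the marks lay otherwise around the 5′ end. H3K9me2 covered 31.7% of genes at 10 kb upstream, 44.2% at the 5′ end, 47.1% at 1 kb downstream and 32.7% at 10 kb downstream. H3K9me1 covered 20.2%, 26%, 34.6% and 17.3% at the same points. In the other protein-coding genes of the chromosome H3K9me1 was at its lowest at the 5′ end, with 9.96%. H3K9me3 over the receptor genes was at its lowest at the 5′ end too, with 10.6%, and at its highest 12.5 kb downstream, with 26.9%. Its regions covered 12.9% of receptor gene bodies and 21.9% of the other bases of the clusters, whereas H3K9me2 covered 33.1% and 25.3% and H3K9me1 19.1% and 12.8%.

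The gene bodies were counted in the same way. On chromosome 11, H3K9me2 met 68 bodies (65.4%, against 12% of all genes of the chromosome), H3K9me1 met 53 (51%, against 45.4%) and H3K9me3 met 31 (29.8%, against 9.66%). With regions of at least 5 kb only, H3K9me2 met 49 bodies, H3K9me3 met 20 and H3K9me1 met 15. H3K9me2 covered a body whole in 17 genes, and H3K9me1 and H3K9me3 in 7 each. On chromosome 9, H3K9me1 met 0 bodies, H3K9me2 met 2 and H3K9me3 met 6, against 47.8%, 23.3% and 18.9% of all genes of that chromosome. Olfr56 stood apart in length, with a body of 156 kb, of which H3K9me1, H3K9me2 and H3K9me3 covered 4.24%, 4.72% and 1.44%, and with no mark at its 4 start sites.

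**Figure D3:**
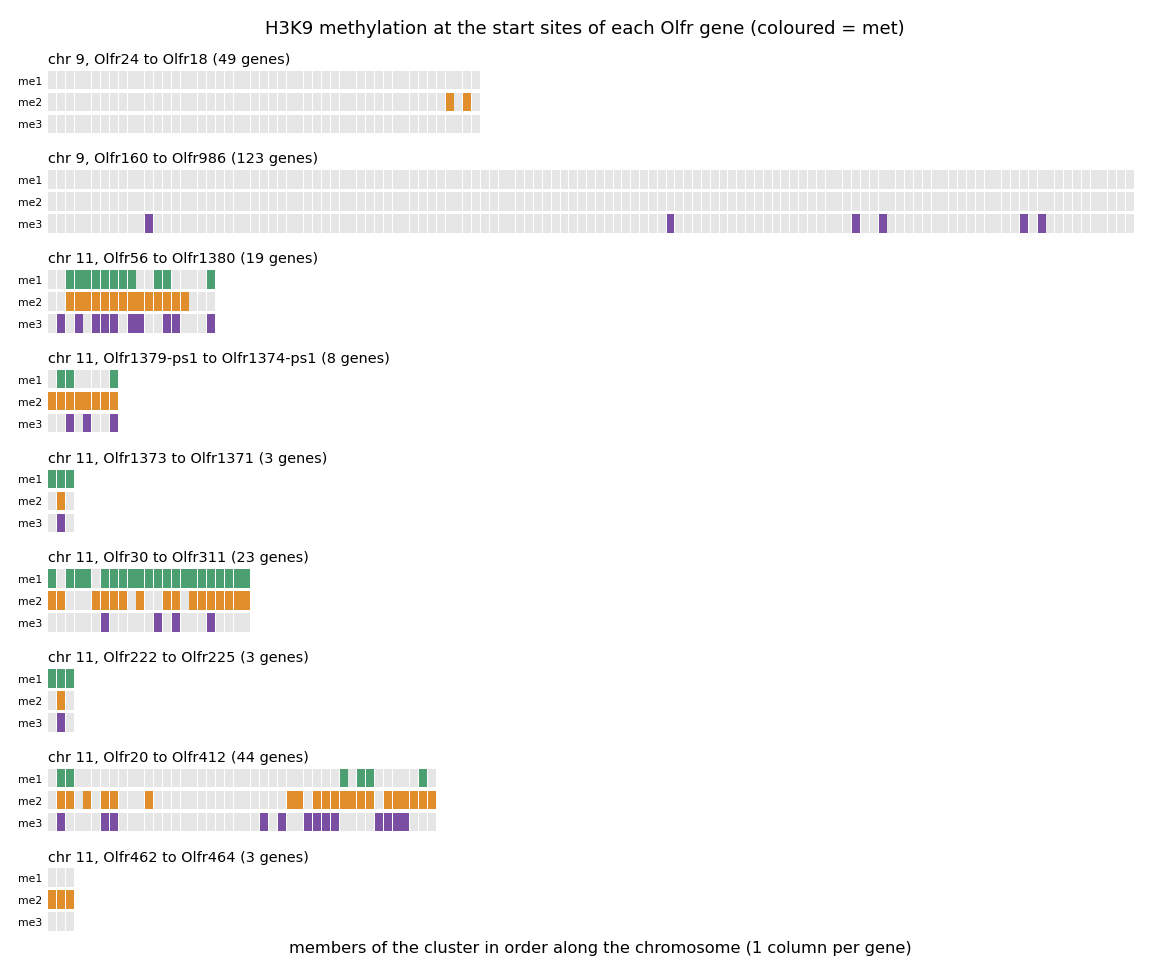
Marks at the start sites of the genes of each cluster, with 1 column per gene in order along the chromosome and 1 line per mark, coloured where a region of that mark met a start site and grey where none did. The 2 clusters of chromosome 9 are almost wholly grey, while the 7 clusters of chromosome 11 are marked in patterns that differ from cluster to cluster.

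The clusters of chromosome 11 differed in which mark they carried. In the cluster from Olfr56 to Olfr1380 (chromosome 11, 48978889 to 49565859, 19 genes), H3K9me1 met 11 genes, H3K9me2 met 14 and H3K9me3 met 10, and 6 genes carried all 3. H3K9me2 met 14 neighbouring genes without a break from Olfr1395 to Olfr1383 over 385 kb. The genes with all 3 marks included Olfr1389, whose start window was covered to 71.1%, 83.2% and 100% by H3K9me1, H3K9me2 and H3K9me3, and Olfr10, at 18.5%, 100% and 19.9%. Olfr1391, Olfr1394 and Olfr1385 carried all 3 as well, and Olfr1396 carried H3K9me3 alone. Olfr56, Olfr1382 and Olfr1381 had none, and the neighbour of the last, Olfr1380, had 79.3% of its start window under H3K9me1 and 50% under H3K9me3.

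H3K9me2 met all 8 genes of the cluster from Olfr1379-ps1 to Olfr1374-ps1 (50958948 to 51143467). In Olfr1379-ps1, Olfr1376-ps1, Olfr54 and Olfr1375 it stood alone. Olfr1377 and Olfr1374-ps1 carried all 3 marks, and the body of the latter was covered whole by each. Olfr1378 added H3K9me1 and Olfr51 added H3K9me3. The 3 genes from Olfr1373 to Olfr1371 (52144593 to 52213987) all carried H3K9me1, which covered the bodies of Olfr1373 and Olfr1371 whole with no other mark. Olfr1372-ps1 between them carried all 3. The widest H3K9me1 region that met a receptor gene, 21.75 kb long, lay over Olfr1371.

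Each of the 23 genes of the cluster from Olfr30 to Olfr311 (58454105 to 58844111) carried a mark. H3K9me1 met 21 genes, H3K9me2 met 16 and H3K9me3 met 4. H3K9me1 ran without a break over 17 neighbouring genes from Olfr328 to Olfr311 (293 kb), and H3K9me2 over 7 from Olfr317 to Olfr311. H3K9me1 with H3K9me2 alone was the state of 11 genes. H3K9me1 stood alone in Olfr332, Olfr331, Olfr330, Olfr325, Olfr323 and Olfr318, and H3K9me2 alone in Olfr333-ps1 and Olfr329-ps. Olfr328, Olfr319 and Olfr315 carried all 3 marks. In Olfr328 the start windows were covered to 100%, 87.2% and 18.7% by H3K9me1, H3K9me2 and H3K9me3, while in its neighbour Olfr329-ps they were covered to 66% by H3K9me2 and by no other mark. The widest H3K9me2 region that met a receptor gene, 21.75 kb long, met Olfr320 and Olfr319.

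The 3 genes from Olfr222 to Olfr225 (59570255 to 59615060) repeated the arrangement of Olfr1373 to Olfr1371. H3K9me1 met all 3 genes, stood alone in Olfr222 and Olfr225, and was joined by H3K9me2 and H3K9me3 in Olfr223 between them. H3K9me1 and H3K9me2 covered the whole start windows of Olfr223, and H3K9me3 covered 33.1% of them. The 3 genes from Olfr462 to Olfr464 (87884979 to 87920967) carried H3K9me2 alone, over 100%, 84.6% and 56.3% of their start windows. No H3K9me3 region met that cluster or its flanks. Olfr1397-ps1, the gene of this chromosome outside the clusters, carried no mark.

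The cluster from Olfr20 to Olfr412 (73350783 to 74366218, 44 genes) was divided along its length. Near the proximal end, Olfr376 carried all 3 marks, Olfr377-ps1 carried H3K9me1 with H3K9me2, and Olfr379-ps1 and Olfr380 carried H3K9me2 with H3K9me3, while Olfr20, Olfr1 and Olfr378 had none at a start site. In Olfr376 H3K9me2 covered the whole start window, H3K9me1 covered 37.5% and H3K9me3 covered 0.25%, so the last was met at its edge. Then 12 neighbouring genes from Olfr384 to Olfr23 had no mark over 344 kb. From Olfr398 to Olfr412 each of 18 neighbouring genes over 386 kb carried a mark. These stretches were picked out by the longest runs, so they describe the cluster and were not tested.

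Within the distal stretch H3K9me2 and H3K9me3 lay over the same or neighbouring genes. The widest H3K9me3 region that met a receptor gene in these chromosomes was 63.75 kb long (74094751 to 74158500) and covered the bodies of Olfr400-ps1, Olfr401 and Olfr402 whole. H3K9me2 covered 17.5%, 43.1% and 74.9% of these bodies. H3K9me2 alone met Olfr139, Olfr399, Olfr404-ps1, Olfr410 and Olfr412, and H3K9me3 alone met Olfr398, Olfr400-ps1 and Olfr407-ps1. H3K9me1 met 6 of the 44 genes of the whole cluster (13.6%), against 45.2% of the receptor genes of the chromosome.

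**Figure D4:**
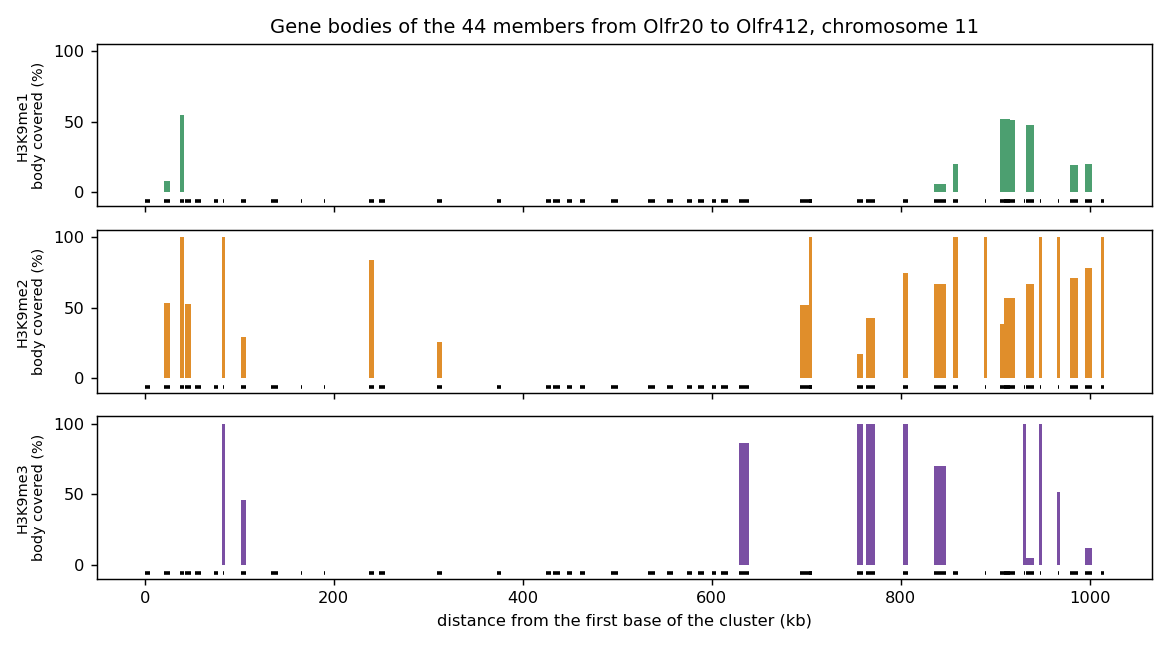
Share of each gene body covered (%) by H3K9me1, H3K9me2 and H3K9me3 for the 44 genes from Olfr20 to Olfr412 on chromosome 11, drawn at their distance from the first base of the cluster (kb), with black bars under each panel for the gene bodies. Cover lies toward both ends, and the genes in the middle have little or none.

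Clusters were set beside their flanks to see where the cover changed. On chromosome 9 the clusters were covered to 0.0922% by H3K9me1 and their flanks to 19.7%, a difference of -19.6 percentage points. For H3K9me2 it was 1.29% against 9.88% and for H3K9me3 8.73% against 6.34%, a difference of 2.39 points that turned to -1.77 with flanks of 250 kb. The pair differed for H3K9me3, with 11.8% against 2.4% from Olfr24 to Olfr18 and 6.74% against 10.3% from Olfr160 to Olfr986. The flanks were uneven, since the proximal flank of Olfr24 was covered to 0%, 0.15% and 0.3% by the 3 marks and the distal flank of Olfr18 to 37.4%, 5.55% and 4.5%. The low cover by H3K9me1 therefore continued past Olfr24 and ended past Olfr18.

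On chromosome 11 H3K9me1 was lower in the clusters than in the flanks (14.9% against 41.2%), while H3K9me2 (27.9% against 13.9%) and H3K9me3 (18.9% against 6.59%) were higher. From Olfr20 to Olfr412 the values were 3.32% against 54.9% for H3K9me1, 22.9% against 6.9% for H3K9me2 and 25.9% against 1.73% for H3K9me3. From Olfr462 to Olfr464 H3K9me2 covered 47.8% of the cluster and 0.528% of its flanks. From Olfr56 to Olfr1380 the cluster and its flanks were close for H3K9me2, at 28.2% and 27.4%. From Olfr1379-ps1 to Olfr1374-ps1 the cluster was lower than its flanks for each mark, at 20.7% against 35.5% for H3K9me2. H3K9me2 was higher in the cluster than in the flanks in 6 of the 7 clusters, H3K9me3 in 4 and H3K9me1 in 3.

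**Figure D5:**
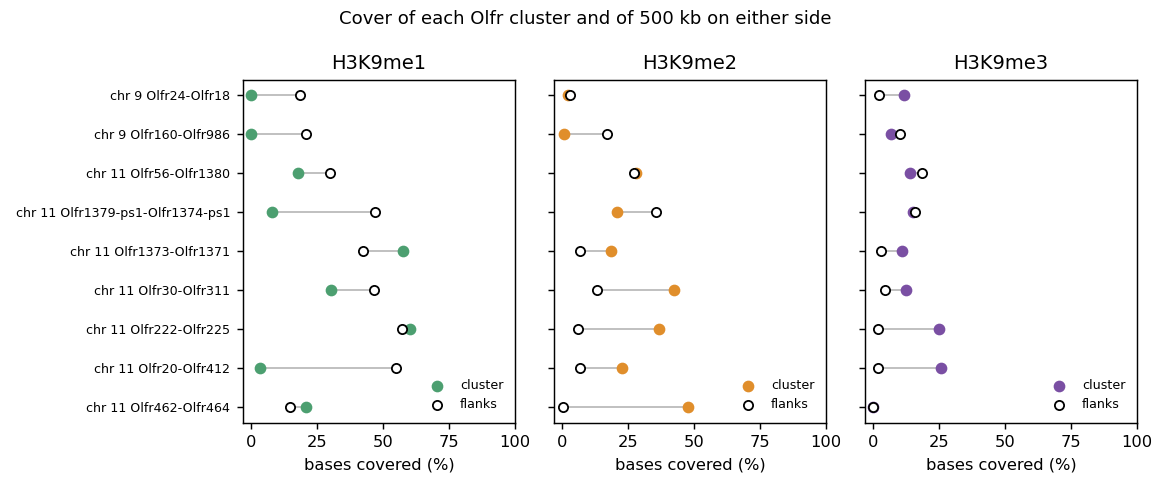
Share of bases covered (%) by each mark in the 9 Olfr clusters (filled circles) and in the 500 kb on either side of each (open circles), with a grey line joining the values of a cluster. H3K9me1 lies at 0 to 0.151% in the chromosome 9 clusters and at 18.7 to 20.7% in their flanks, and H3K9me2 lies at 18.4 to 47.8% in the 7 chromosome 11 clusters.

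Genes next to the clusters were scored in the same way. Of the 134 protein-coding genes without an Olfr symbol in the chromosome 11 flanks, 48 carried H3K9me1, 14 H3K9me2 and 6 H3K9me3 at a start site. The shares were 36.6%, 5.46% and 5.01% over the 1557 such genes of the chromosome, and 31.9%, 8.4% and 7.51% over all its genes. Of 15 such genes inside the chromosome 11 clusters, 4 carried H3K9me1, 2 H3K9me2 and 1 H3K9me3. These 15 were too few to be set apart from those shares. Lypd9, the neighbour 1.18 kb before Olfr30, carried H3K9me2 and H3K9me3 over 97.4% of its body each. Nlrp3, an inflammasome gene 3.3 kb before Olfr222, and Epx, the eosinophil peroxidase gene before Olfr462, carried H3K9me1 alone at a start site, as did Mprip and Rap1gap2 past other clusters. Spata22, Ppp2ca and Skp1a beside the clusters had none at a start site.

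On chromosome 9 the nearest genes, Muc16, Zfp560, Panx3 and Zfp202, had no mark at a start site either. Of the 36 genes in the chromosome 9 flanks, 16 carried a mark, 13 of them H3K9me1. Any mark met 61.5% and H3K9me1 52.5% of the 1078 other protein-coding genes of the chromosome. Over all its genes the shares were 50.8% and 36.7%. Inside the clusters 1 of 4 genes carried a mark, which was H3K9me3, and 4 genes are too few to be set beside those shares.

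Genes that act with the receptors were examined for the same marks. Of 29 genes of olfactory transduction and receptor choice, 4 had a mark at a start site and all 4 carried H3K9me1, against 28.8% of all genes with any mark and 21.4% with H3K9me1. The olfactory G protein Gnal, the adenylyl cyclase Adcy3, the channel subunits Cnga2 and Cnga4, and Omp, a marker of mature sensory neurons, had none. Cngb1, a further subunit of that channel, and Ric8b, which assists the olfactory G protein, carried all 3. Pde4a and Ldb1 carried H3K9me1 alone, and Lhx2 and Ebf1, transcription factors of receptor choice, carried none at a start site. Cover by chromosome was uneven, and most of these genes lay on other chromosomes than the receptor genes. Of 10 genes commonly expressed in fibroblasts on chromosomes 9 and 11, Thy1 and Islr carried H3K9me1 at a start site. None carried H3K9me2 or H3K9me3 there, while Islr had 3.12% of its body under each of the latter. Over all genes of chromosomes 9 and 11 in turn, 36.7% and 31.9% carried H3K9me1, 15.8% and 8.4% H3K9me2, and 13.7% and 7.51% H3K9me3. The 10 genes were too few to be set apart from these shares.

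Sequence composition moved with the marks on each chromosome taken whole, though not in every cluster. The median GC content of the start windows was 43.4% in the 81 marked genes of chromosome 11 and 38.1% in its 23 unmarked genes. A mark met 73 of the 77 chromosome 11 genes with a GC content of at least 40%, that is 53 of 55 below 45% and 20 of 22 from 45% upward. It met 8 of the 24 genes between 35% and 40%, and 0 of 3 below 35%. On chromosome 9 it met 4 of the 24 genes between 40% and 45%, 2 of 98 between 35% and 40%, and 2 of 51 below 35%. Genes of like GC content were thus met in 96.4% of cases on chromosome 11 and 16.7% on chromosome 9. From Olfr20 to Olfr412 the median GC content was 42.3% in the 25 marked genes and 37.7% in the 19 unmarked. From Olfr56 to Olfr1380 the order was the opposite, with 42% in the 16 marked genes and 43.1% in the 3 unmarked. The part of base composition in the calls was not tested.

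Some receptor genes resemble each other closely, and how reads with several matches were placed is not given in the sources used here. The share of 100-base stretches that occur once in the assembly was 92.7% in the chromosome 9 clusters and 96.5% in their flanks, and 89.4% and 97.8% on chromosome 11. At the start windows its median was 100% in the unmarked genes of chromosome 9 and 98.1% in the marked genes of chromosome 11. The lowest was 41.5%, in Olfr56, the only one under 50%. Unmarked genes were therefore, as a median, no less unique than marked ones on either chromosome taken whole, with 100% against 98.1% on chromosome 11. The cluster from Olfr56 to Olfr1380 was the exception, at 86.5% in its 3 unmarked genes and 98.9% in its 16 marked genes.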

How the data were processed

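ChIP-seq of H3K9me1, H3K9me2 and H3K9me3 and input was done in wild-type MEFs, with 2 replicates per group. Per the study's methods, the authors aligned reads to mm10 (GRCm38) with bwa and called regions with histoneHMM, a hidden Markov model over genomic bins. The submitters' processing notes give BWA 0.7.1. The deposited lists hold coordinates only (1-based on a 750 bp grid), with 42704, 29119 and 27108 regions. How replicates and input entered the call, its threshold and the treatment of multiply mapped reads are not given in the sources used here. Depth is unknown from the lists.

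Members were chosen by symbol. The members, gene lists and measures were chosen with earlier results of these data known. Genes named are the ends of each cluster, genes with all 3 marks (at most 5 per cluster), with 1 mark or with a rare combination, the longest runs, the widest regions, the neighbouring pair that differed most in clusters of at least 10 genes, genes outside clusters and the nearest other genes, of which 1 is not reported here. Others named were added after their values were seen.

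Overlap of at least 1 bp was counted for start windows (1 kb), gene bodies, clusters and flanks (500 kb). Unique 100-base stretches, GC and soft-masked shares came from the GRCm38 sequence. Overlap counts were tested on simulated data. No test across genes was run, and protein sequences were not analysed here. Python 3.11.15, NumPy 2.4.6, SciPy 1.17.1, Biopython 1.88 and Matplotlib 3.10.9 were used. Alternatives covered windows, region width, joining, overlap, start convention, cluster gaps and flanks.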

Additional observations from a re-analysis of the deposited data

How the results depend on the processing

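No paired analysis was possible because each mark had a single list without replicate values. Leaving out each replicate and a replicate block were therefore not run. Of 226 recomputed values, 150 stayed within the limits set (1.5 times for a count), 72 moved and 4 changed direction. The cause of these moves was not tested beyond what each setting does by construction.

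With a 5 kb window, a mark met 29 chromosome 9 genes against 8, 25 of them by H3K9me3, and on chromosome 11 H3K9me3 met 52 against 32 and all 3 marks met 27 against 14. With the gene's 5′ end only, H3K9me3 met 19 and all 3 marks 5 on chromosome 11. With at least 50% of the window covered, a mark met 5 chromosome 9 genes and all 3 marks met 5 chromosome 11 genes. With regions of at least 2 kb, all 3 marks met 7. With regions of at least 5 kb, a mark met 3 chromosome 9 genes, and on chromosome 11 H3K9me1 met 15 start sites against 47, H3K9me3 met 19 and all 3 marks 2. The count of 64 chromosome 11 genes with H3K9me2 stayed within the limit under each setting run. Bodies met on chromosome 11 fell to 15 for H3K9me1 and 20 for H3K9me3 with regions of at least 5 kb, and to 23 and 12 with at least 50% of the body covered, from 53 and 31.

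The chromosome 9 clusters were covered by any mark to 6.07% with regions of at least 5 kb (9.46% with all), and their difference from the flanks (-21.1 points) was -16.4 with those regions, -25.2 with regions joined, -12.3 with 250 kb flanks and -24.3 with 1 Mb flanks. The difference of H3K9me3 there (2.39 points) turned to -1.77 with 250 kb flanks. On chromosome 11, cover by H3K9me1 (14.9%) was 12.8% with regions of at least 2 kb, 6.56% with regions of at least 5 kb, 18.2% with regions joined and 25.5% with clusters ended by gaps over 1 Mb. Cover by H3K9me2 (27.9%) was 22.2% with regions of at least 5 kb, 32.2% joined and 24.1% with 1 Mb gaps, and by H3K9me3 (18.9%) 16.4% and 15.5% with regions of at least 5 kb and 1 Mb gaps. Differences from the flanks kept their direction for each mark on chromosome 11. H3K9me1 (-26.3 points) gave -31.5 joined, -13.4 with 1 Mb gaps, -21.8 with 250 kb flanks and -24.6 with 1 Mb flanks. H3K9me2 (14 points) gave 11.2 with regions of at least 5 kb, 17.1 joined, 10 with 1 Mb gaps and 16.8 with 250 kb flanks. H3K9me3 (12.3 points) gave 10.3, 8.67 and 14.6 with regions of at least 5 kb, 1 Mb gaps and 250 kb flanks. The difference of any mark on chromosome 11 (-1.23 points) turned to 4.22 with 1 Mb gaps, 3.72 with 250 kb flanks and 0.193 with 1 Mb flanks, so clusters and flanks did not differ in a stable direction there.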
